A study of Mus musculus with 6 samples.

Results

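The ADAMTS-like genes Adamtsl1 to Adamtsl5, Thsd4 and Papln were followed in endothelial cells of the embryonic mouse brain, with Adamtsl2, the gene named in the title of the study, at the centre. The 7 genes were found by their symbols, and each matched 1 of the 22958 RefSeq gene entries in the deposited tables. The cells had been sorted on CD31, which is PECAM1, at E11.5, in mid-gestation, after the mother had received tamoxifen at E9.5. All embryos had the strain C57BL/6 x 129/Sv. In the 3 Axin1 libraries the genotype was given as Cdhrs5CreERT2:R26Axin1IL+/-, and in the 3 control libraries as Cdhrs5CreERT2:R26Axin1IL-/-. Both groups therefore carried the inducible Cre and received tamoxifen, and the Axin1 allele at R26, a locus used for broadly expressed transgenes, was the stated difference; what IL stands for is not stated. The study asked how expression changes when Axin1, a negative regulator of Wnt/beta-catenin signalling, is overexpressed. The libraries are called biological replicates, but litters and pooling are not stated, so p-values measure only the spread between these libraries.

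ADAMTS-like proteins are secreted glycoproteins that share the thrombospondin type 1 repeats and the cysteine-rich and spacer modules of the ADAMTS proteases but lack the protease domain. Several of them bind fibrillin microfibrils, the extracellular scaffold that also holds latent TGF-beta through the LTBP proteins. ADAMTSL2 binds LTBP1 and fibrillins, and its loss of function in humans causes geleophysic dysplasia, a disorder of the connective tissue with short stature. Canonical Wnt signalling through beta-catenin drives vessel ingrowth and barrier formation in the central nervous system.

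Adamtsl2 lies on chromosome 2 of the mouse. The 250 bases before the start that the RefSeq promoter windows use for it, base 27079379 (GRCm38.p6, plus strand, chr2:27079129-27079378), are shown because no other family member passed the test between groups given below. The capitals mark the letters TATAAA. The RefSeq gene record, which also lists predicted transcripts, begins earlier, at base 27079336, so the last 43 bases shown lie inside that record.

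Adamtsl2: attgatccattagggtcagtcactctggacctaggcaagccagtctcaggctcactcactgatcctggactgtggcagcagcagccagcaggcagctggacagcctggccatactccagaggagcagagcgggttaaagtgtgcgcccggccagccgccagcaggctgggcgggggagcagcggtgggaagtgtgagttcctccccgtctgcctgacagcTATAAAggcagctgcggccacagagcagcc

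TATAAA stood at position -30, read in the direction of transcription and counted, like all positions here, from the start of the promoter window's gene model, which lies after the beginning of the gene record. It occurred in 8.32% of the 32851 RefSeq promoter windows, which run from 250 bases before to 50 bases after a start, and in none of the 6 windows matched to Adamtsl3, Adamtsl4, Adamtsl5, Papln and Thsd4, which has 2. Forms of the site that TCF/LEF factors recognise were searched on both strands, as the letters CTTTGAA, as CTTTGAT with a different last base, and as both of these with T in place of the first A, which gives CTTTGTA together with CTTTGTT. They occurred in 16.9% of all windows and in 0 of the 7 windows matched to the family, which says only that these letters are not in these windows. No window was matched to Adamtsl1. The shorter letters CTTTGA, which overlap the first 2 forms, were present in 16.0% of windows, among them those of Adamtsl2, at position +45, and of Thsd4, at position -198. The match at +45 stands near the edge of the window, which ends 50 bases after the start. A longer form that runs past this edge would not be found.

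Library totals ranged from 11633853 to 14234409 reads in the Axin1 group and from 10772492 to 13035808 reads in the control group. Axin1 itself, the overexpressed gene, stood at 79.7, 62.1 and 66.1 CPM (read counts scaled to library size, normalised with TMM) in Axin1 libraries 1, 2 and 3, against 25.0, 17.5 and 20.8 CPM in controls 1, 2 and 3. The summed level of 8 endothelial markers was 6591 to 7380 CPM in the Axin1 libraries and 6599 to 6872 CPM in the controls, with all 8 detected. Pecam1, the gene of the sorting marker, averaged 378 ± 20.3 RPKM and 394 ± 40.0 RPKM (SD, n = 3 each) in the Axin1 and control libraries. Cdh5, the gene of VE-cadherin, was at 980, 944 and 923 CPM in the Axin1 libraries and 432, 501 and 845 CPM in the controls, in the opposite direction to Adamtsl2 (log2 fold change 0.68, edgeR adjusted p 0.218, DESeq2 adjusted p 0.0406). Without control 3, the highest control, the value for Cdh5 was 1.01 (edgeR adjusted p 0.00222). That fit called 695 genes of the whole table, against 107 with all 6 libraries. Esam, another endothelial adhesion gene, averaged 1010 ± 79.8 CPM and 1250 ± 61.2 CPM (edgeR adjusted p 0.176).

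The family was dominated by 1 member. Per length, in the authors' RPKM (reads scaled to transcript length and library size), Adamtsl2 stood at 54.9, 52.1 and 53.7 RPKM in the Axin1 libraries, against 93.0, 109 and 122 RPKM in the controls. Every Axin1 library was lower than every control. Among the 22958 entries its level ranked 1916, 2033 and 1931 in Axin1 libraries 1, 2 and 3 and 1219, 1008 and 896 in controls 1, 2 and 3, counted from the highest. The next member in each library was between 80.0 and 162 times lower in the Axin1 libraries and between 302 and 432 times lower in the controls. No other member reached 1 RPKM in any library. Adamtsl1 was at 0.375 ± 0.196 RPKM in the Axin1 libraries and 0.280 ± 0.0565 RPKM in the controls, and Adamtsl4 at 0.385 ± 0.236 RPKM and 0.255 ± 0.131 RPKM (SD, n = 3 each). These neighbours in the order overlapped and changed places between libraries. Papln was at 0.165 ± 0.153 RPKM in the Axin1 libraries and 0.0502 ± 0.0255 RPKM in the controls, and Thsd4 at 0.0739 ± 0.0751 RPKM and 0.0883 ± 0.0820 RPKM. Their ranges overlapped as well, with Papln the next member after Adamtsl2 in Axin1 library 1 and below Thsd4 in the control means, while Adamtsl5 and Adamtsl3 had no read in most libraries.

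**Figure D1:**
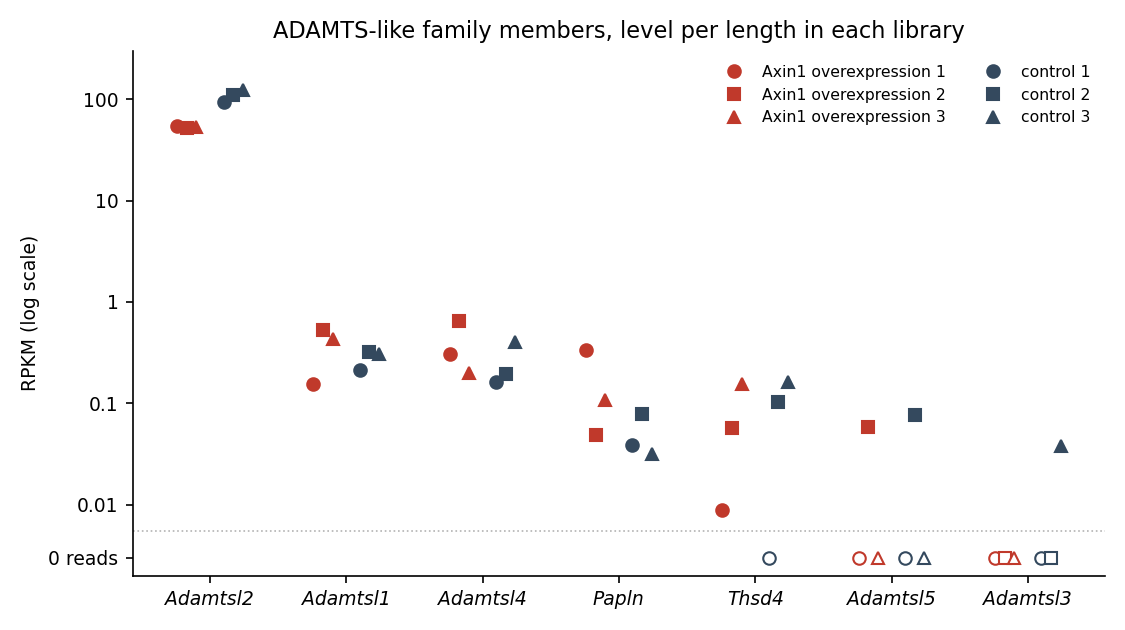
Level of the 7 family members in each library, in the authors' RPKM on a log axis, with Axin1 libraries (red) left of controls (dark) and open symbols on the lowest line for 0 reads. Adamtsl2 stands between 52.1 and 122 RPKM, and the 6 other members stay below 1 RPKM in all 6 libraries.

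Adamtsl2 (NM_029981) was lower in the Axin1 libraries. Its normalised level was 180, 167 and 176 CPM in Axin1 libraries 1, 2 and 3, against 312, 355 and 396 CPM in controls 1, 2 and 3, on 2255, 2423 and 2040 reads against 3573, 4637 and 4312 reads. The groups did not overlap, and the Axin1 libraries lay closer together, at 174 ± 6.84 CPM against 354 ± 41.8 CPM (SD, n = 3 each). The log2 fold change was -1.02 (SE 0.12, 95% confidence interval -1.29 to -0.76), a 2.03-fold lower level, with an adjusted p of 0.0181 in edgeR's quasi-likelihood test over 12661 genes. By this test 1 of the 3 members that could be tested was called, against 0.845% of all tested genes called in either direction, 0.49% called lower and 0.355% called higher. Groups that do not overlap were seen in 23.8% of all tested genes, in 12.4% with the Axin1 libraries lower and in 11.3% with them higher. Adamtsl2 ranked 9 among the tested genes by p, and 177 of them had a log2 fold change as low or lower. In bulk RNA, fewer cells of a type and less RNA per cell cannot be told apart.

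**Figure D2:**
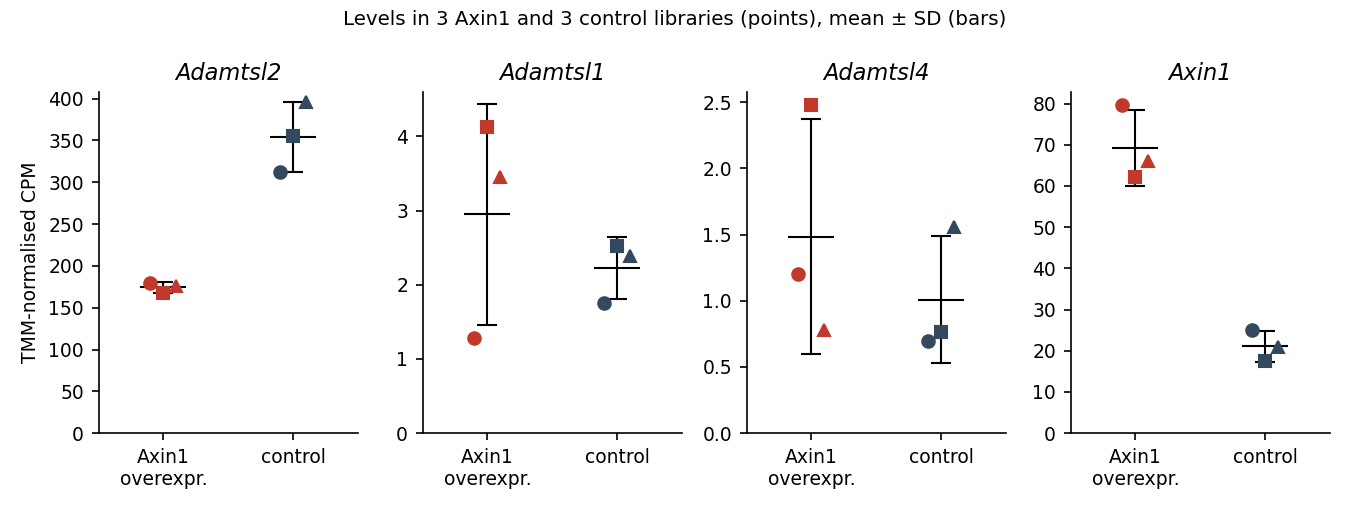
TMM-normalised CPM of Adamtsl2, Adamtsl1, Adamtsl4 and Axin1, the overexpressed gene, in each library (symbols), with the mean and SD of 3 libraries (bars), and a separate axis from 0 for each gene. Adamtsl2 is at 167 to 180 CPM in the Axin1 libraries and at 312 to 396 CPM in the controls, while the groups overlap for Adamtsl1 and Adamtsl4.

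The size of the Adamtsl2 change was steady across fits, and its call was not. Leaving out 1 library at a time gave log2 fold changes between -1.11 and -0.95. The adjusted p in edgeR was 0.146 without Axin1 library 2, 0.132 without control 2 and 0.0545 without Axin1 library 3, so the call rested on each of these libraries. It was 0.0361 without Axin1 library 1, 0.0211 without control 1 and 0.0027 without control 3, a fit that called 695 genes, against 107 with all 6 libraries. Without Axin1 library 2 or control 2 edgeR called 0 genes of the whole table, where 1733 and 1539 genes had an unadjusted p below 0.05. DESeq2 gave an adjusted p of 3.9e-11 for Adamtsl2 and called 720 genes, or 6.58% of those it adjusted. In limma on log2(RPKM + 1) the adjusted p was 0.0662, and on log2(RPKM + 0.1) it was 0.111. The titles of 2 libraries in each group share a number, and within 1813 the log2 ratio was -0.80 and within 1814 it was -1.09, from 1 library a group.

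**Figure D3:**
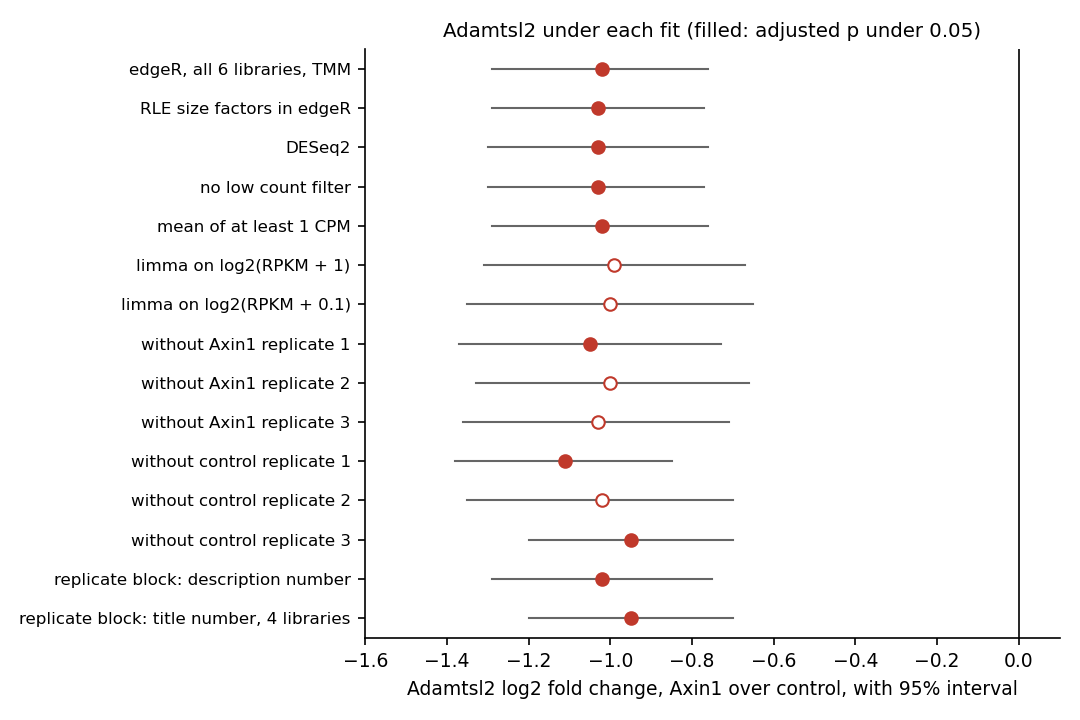
Log2 fold change of Adamtsl2, Axin1 over control, with its 95% interval, in the edgeR fit of all 6 libraries and in 14 other fits, filled where the adjusted p was under 0.05. All values lie between -1.11 and -0.95, and 5 of the 14 other fits have an open symbol.

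Adamtsl1 (NM_029967), which encodes punctin, a matrix protein without protease activity, had 16, 60 and 40 reads in Axin1 libraries 1, 2 and 3, against 20, 33 and 26 reads in controls 1, 2 and 3. The level was 1.28, 4.13 and 3.45 CPM against 1.75, 2.53 and 2.39 CPM, so the Axin1 libraries held both the lowest and the highest values. The log2 fold change was 0.41 (95% confidence interval -0.72 to 1.54, edgeR adjusted p 0.722).

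Adamtsl4 (NM_144899), whose human counterpart is mutated in lens dislocation and which binds fibrillin-1, had 15, 36 and 9 reads in the Axin1 libraries and 8, 10 and 17 reads in the controls. That was 1.20, 2.48 and 0.777 CPM in the Axin1 libraries and 0.699, 0.766 and 1.56 CPM in the controls. The groups overlapped, and the highest value came from Axin1 library 2. The log2 fold change was 0.57 (95% confidence interval -0.82 to 1.96, edgeR adjusted p 0.684), and without Axin1 library 2 it was -0.02. For both genes the interval includes a 2-fold rise, so a rise of that size could have gone undetected.

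The remaining 4 members did not pass the filter on low counts and have no test in the main fit. Papln, the gene of papilin, an extracellular matrix glycoprotein, had 19, 3 and 6 reads in Axin1 libraries 1, 2 and 3, against 2, 5 and 2 reads in the controls. Only Axin1 library 1 stood apart from the other 5. Thsd4, also called ADAMTSL6, which promotes fibrillin-1 microfibril assembly, had 1, 6 and 14 reads in the Axin1 libraries and 0, 10 and 13 reads in the controls, a similar spread in both groups. Adamtsl5, which binds fibrillin, had 0, 2 and 0 reads in the Axin1 libraries and 0, 1 and 0 reads in the controls. Adamtsl3, a matrix protein gene closely related to Adamtsl1, had 0 reads in each Axin1 library and 0, 0 and 3 reads in the controls. A count of 0 allows a level of up to 0.206 to 0.259 CPM in an Axin1 library and 0.230 to 0.275 CPM in a control (3 reads of the library, counting error only), so neither Adamtsl5 nor Adamtsl3 can be compared between groups at this depth. With the filter removed, the log2 fold change was 1.52 for Papln (95% confidence interval -0.56 to 3.61, edgeR adjusted p 0.544) and -0.22 for Thsd4 (95% confidence interval -2.74 to 2.29, edgeR adjusted p 0.957).

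Of the summed RPKM of the family, Adamtsl2 made up 98.54%, 97.48% and 98.35% in Axin1 libraries 1, 2 and 3, against 99.55%, 99.29% and 99.24% in controls 1, 2 and 3. The share was 1.23 percentage points lower in the Axin1 libraries and the groups did not overlap, with an exact permutation p of 0.1 (two-sided), the smallest that 3 libraries against 3 can give. The 6 other members together had 0.811, 1.35 and 0.900 RPKM in the Axin1 libraries and 0.419, 0.776 and 0.942 RPKM in the controls (exact permutation p = 0.4, two-sided), so these ranges overlapped. The log2 ratio of Adamtsl2 to Adamtsl1, in CPM, was 7.14, 5.34 and 5.67 in the Axin1 libraries and 7.48, 7.13 and 7.37 in the controls, which overlapped narrowly (exact permutation p = 0.2, two-sided). Its ratio to Adamtsl4 was 7.23, 6.07 and 7.82 against 8.80, 8.86 and 7.99, with no overlap (exact permutation p = 0.1, two-sided). Whether Adamtsl2 changed differently from its relatives is thus beyond what 3 libraries a group can show by this test.

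Markers of other cells differed between libraries. The summed level of 14 pericyte and mesenchyme markers was 129, 193 and 152 CPM in Axin1 libraries 1, 2 and 3 and 76.8, 117 and 154 CPM in controls 1, 2 and 3. The collagen gene Col1a2 of that list was at 7.58, 36.7 and 26.3 CPM against 2.97, 9.27 and 20.8 CPM. Axin1 library 2, the highest for the summed level and for Col1a2, was also the highest of all for Adamtsl1 and Adamtsl4. Some other markers of the list peaked elsewhere, such as Pdgfrb in control 3 (26.4 CPM) and Abcc9 in Axin1 library 1. There Abcc9 alone gave 64.2 of the summed 129 CPM. The part of such cells in the Adamtsl1 and Adamtsl4 values was not tested. The 8 macrophage markers summed to 185, 1015 and 2192 CPM in the Axin1 libraries and to 353, 690 and 349 CPM in the controls. Adamtsl2 was at 180, 167 and 176 CPM in Axin1 libraries 1, 2 and 3, and its relation to these markers was not tested. Sums were 251 to 275 CPM against 177 to 387 CPM for 9 neural markers, 241 to 2632 CPM against 688 to 3014 CPM for 7 erythroid markers, and 441 to 1992 CPM against 1078 to 1189 CPM for 5 megakaryocyte and platelet markers. Nes made up most of the neural sum, at 172 to 235 CPM in the Axin1 libraries and 155 to 214 CPM in the controls. Tubb3 was at 21.5 to 54.9 CPM in the Axin1 libraries and at 14.3 to 106 CPM in the controls. The markers with the highest CPM averaged over all 6 libraries were Abcc9 and Foxc1, Cx3cr1 and C1qb, Nes and Tubb3, Hbb-y and Hba-x, and Pf4 and Ppbp, in the order of the lists above. No marker of these 5 lists passed edgeR's or DESeq2's test, none had an unadjusted p under 0.05 in edgeR, and none was at 0 in all libraries.

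The ADAMTS proteases are the catalytic relatives of the family. Of 19 protease genes 11 could be tested, 0 passed edgeR's test, 6 had an unadjusted p under 0.05, as did 17.2% of all tested genes, and DESeq2 called 1. The median log2 fold change of the 11 was 0.42, against 0.02 over all tested genes. Adamts1, which cleaves aggrecan and versican, was at 265, 156 and 239 CPM in the Axin1 libraries, against 124, 89.4 and 78.6 CPM in the controls. Its groups did not overlap, in the opposite direction to Adamtsl2 (log2 fold change 1.18, SE 0.24, edgeR adjusted p 0.0797, DESeq2 adjusted p 8.1e-05). Per length, Adamts1 averaged 44.8 ± 11.1 RPKM and Adamtsl2 53.5 ± 1.42 RPKM in the Axin1 libraries, against 19.6 ± 4.37 RPKM for Adamts1 and 108 ± 14.6 RPKM for Adamtsl2 in the controls (SD, n = 3 each). For Adamts8 the log2 fold change was -1.85 (edgeR adjusted p 0.113) and for Adamts9, a versican-cleaving protease, 0.71 (edgeR adjusted p 0.156), and both counts are uncertain because an exon of another gene overlaps theirs on the opposite strand. Adamts10, which binds fibrillin and is mutated in human Weill-Marchesani syndrome, was at 46.8, 46.0 and 52.2 CPM in the Axin1 libraries and 48.4, 49.4 and 52.1 CPM in the controls.

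Fibrillin microfibril and elastic fibre genes, which encode the structures that ADAMTS-like proteins bind, showed no call. Of 19 such genes 13 could be tested, 0 passed edgeR's or DESeq2's test, 1 had an unadjusted p under 0.05, and the median log2 fold change was -0.04. Mfap2, a small microfibril glycoprotein gene, was at 216 ± 46.5 RPKM in the Axin1 libraries and 284 ± 64.8 RPKM in the controls (SD, n = 3 each; log2 fold change -0.40, edgeR adjusted p 0.362). Fibrillin was present mainly as Fbn2, at 11.1 ± 1.90 RPKM and 10.5 ± 0.651 RPKM, against 1.27 ± 0.289 RPKM and 1.49 ± 0.537 RPKM for Fbn1, in Axin1 and control libraries. Ltbp1, the gene of the latent TGF-beta binding protein that ADAMTSL2 binds, was at 4.63 to 18.6 CPM in the Axin1 libraries and 8.65 to 13.7 CPM in the controls, an overlap of the groups. For Emilin1, an elastic fibre glycoprotein gene, the log2 fold change was 0.47 (edgeR adjusted p 0.222) and for Fbln5, which encodes fibulin-5, it was 1.90 (edgeR adjusted p 0.304), which moved to 1.14 without Axin1 library 3 and to 2.58 without control 2. DESeq2 gave Fbln5 no adjusted p.

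**Figure D4:**
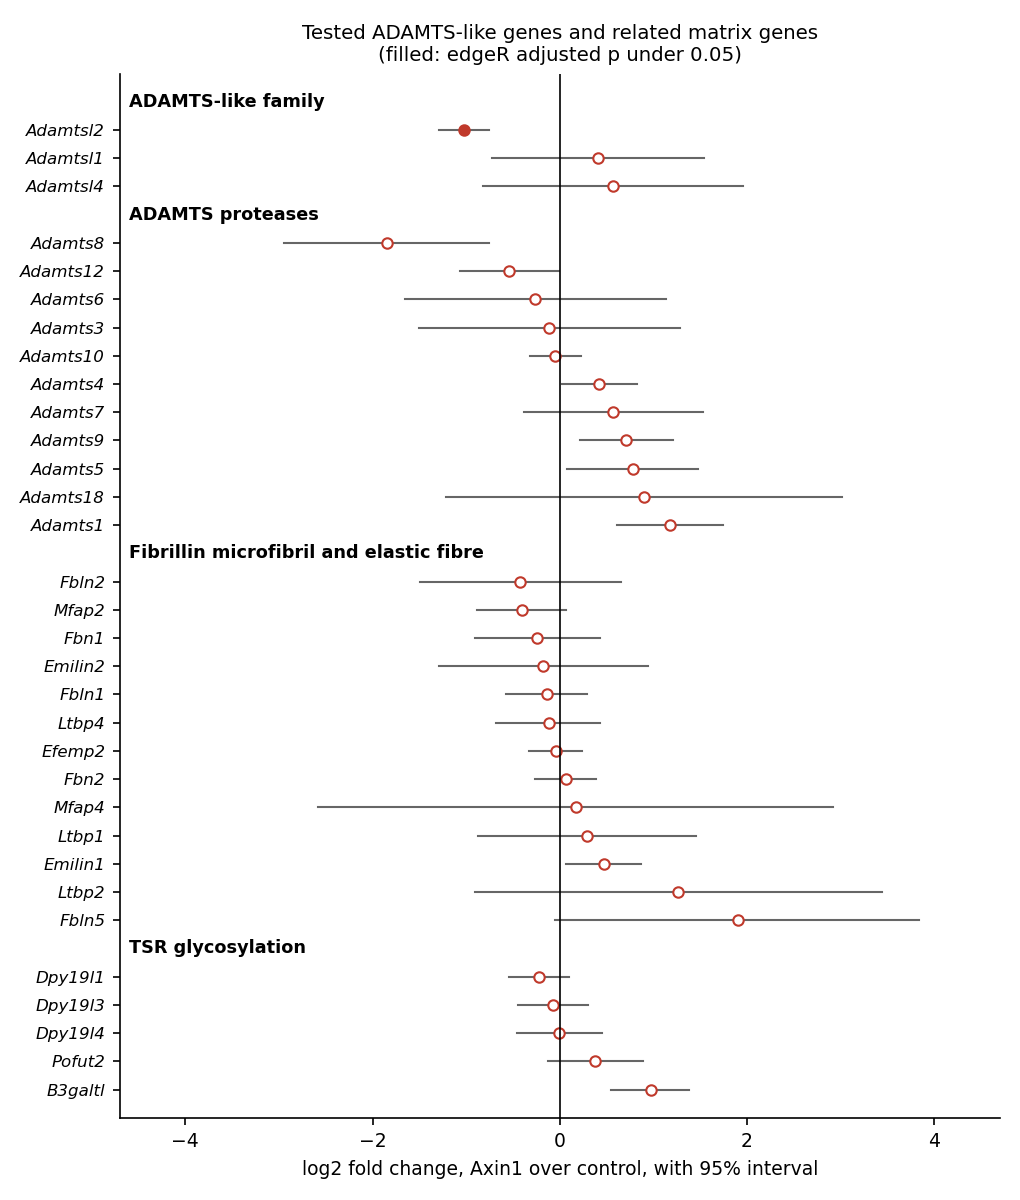
Log2 fold change, Axin1 over control, with its 95% interval, of the tested ADAMTS-like genes, ADAMTS proteases, fibrillin microfibril and elastic fibre genes and genes that glycosylate thrombospondin repeats (TSR), filled where edgeR's adjusted p was under 0.05. Adamtsl2, at -1.02, is the only filled symbol among the 32 genes, and Adamts1 and B3galtl lie on the other side, at 1.18 and 0.97.

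Thrombospondin repeats of ADAMTS-like proteins receive an O-linked fucose from POFUT2, to which the enzyme encoded by B3galtl adds glucose, and this modification promotes their secretion. Of 5 genes of repeat glycosylation 0 passed edgeR's test, 1 had an unadjusted p under 0.05, and DESeq2 called 1, with a median log2 fold change of -0.01. B3galtl was at 22.9, 25.8 and 24.5 CPM in the Axin1 libraries, against 10.5, 12.5 and 14.5 CPM in the controls. Its groups did not overlap (log2 fold change 0.97, SE 0.18, edgeR adjusted p 0.0555, DESeq2 adjusted p 0.00153). Leaving out control 3 gave B3galtl an edgeR adjusted p of 0.0169 and Pofut2 one of 0.0193. Genes called in the whole table rose from 107 to 695 in that fit. The log2 fold change of Pofut2 was 0.38 (edgeR adjusted p 0.429), and another gene overlaps its exons in antisense. For Dpy19l1, a mannosyltransferase gene, it was -0.22 (edgeR adjusted p 0.461).

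For TGF-beta, the growth factor whose latent form is stored on microfibrils, 18 genes were tested, 0 passed edgeR's test, 6 had an unadjusted p under 0.05, against 17.2% of all tested genes, and DESeq2 called 1. Their median log2 fold change was 0.20. Groups did not overlap in 3 of the 18 with the Axin1 libraries higher and in 3 with them lower, against 11.3% and 12.4% of all tested genes. For Skil, a SMAD corepressor gene that TGF-beta induces, the log2 fold change was 0.59 (edgeR adjusted p 0.155, DESeq2 adjusted p 0.0429). For Tgfbi, another gene of the list, it was -0.59 (edgeR adjusted p 0.231), and the groups overlapped in neither gene. The receptor gene Tgfbr1 had a log2 fold change of 0.49 and the signal transducer gene Smad3 one of -0.57 (edgeR adjusted p 0.188 and 0.156).

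Of 11 Wnt/beta-catenin target genes 8 could be tested, with a median log2 fold change of -1.56. By edgeR's test 4 fell, each by more than the 1.02 of Adamtsl2, against 0.49% of all tested genes called lower. All 8 had an unadjusted p under 0.05 in edgeR, against 17.2% of all tested genes, and DESeq2 called 5 lower. In all 8 every Axin1 library lay below every control, as in 12.4% of all tested genes. The list was chosen with earlier results of these data known, so these shares are no independent test. Apcdd1, a membrane-bound Wnt inhibitor, fell by 2.82 on the log2 scale, to 5.64 ± 1.39 RPKM in the Axin1 libraries, against 39.5 ± 8.80 RPKM in the controls. Tnfrsf19, a TNF receptor family gene, fell by 1.54, the Wnt antagonist gene Nkd1 by 2.09 and the forkhead factor gene Foxq1 by 1.81 (edgeR adjusted p 0.00976, 0.0347 and 0.0492), with an antisense overlap for Foxq1. With 1 library left out, the calls of Nkd1 and Foxq1 held in 1 of 6 fits, the one without control 3, and were lost without each of the 5 other libraries (edgeR adjusted p up to 0.198 and 0.213). Those of Apcdd1 and Tnfrsf19 held in 4 of 6 and were lost without Axin1 library 2 or control 2 (edgeR adjusted p up to 0.0721 and 0.0795). For Tcf7, a TCF factor gene, the log2 fold change was -1.57, and for Lef1, another, it was -0.52 (edgeR adjusted p 0.0523 and 0.167). The DESeq2 adjusted p of Tcf7 was 4.5e-05, and without control 3, where 695 genes were called, its edgeR adjusted p was 0.0227. For the pathway's feedback gene Axin2 the log2 fold change was -0.77 (edgeR adjusted p 0.198), and for the overexpressed Axin1 it was 1.72 (edgeR adjusted p 0.0103; 0.0721 without Axin1 library 2 and 0.0915 without control 2). The exons of Lef1 and Axin2 also overlap antisense genes. No test compared the size of the change between Adamtsl2 and these genes.

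Genes were ranked by how closely their levels followed Adamtsl2 over the 6 libraries. The measure was the root mean square distance between log2 CPM profiles, each centred on its own mean. The 9460 genes compared averaged at least 5 CPM, and symbols of predicted genes, clones and LOC entries were left out. The median gene lay 0.56 from Adamtsl2. Ctnnd2, the gene of delta-catenin, was nearest, at 0.073, with 7.34, 7.02 and 8.12 CPM in the Axin1 libraries and 14.0, 14.2 and 16.7 CPM in the controls. Slc7a7, an amino acid transporter gene, was next, at 0.13, with 81.1, 73.3 and 97.9 CPM against 158, 151 and 181 CPM, though its exons overlap those of Oxa1l on the opposite strand. Nampt, of NAD synthesis, followed at 0.14, and the histone gene Hist1h1b and the transcription factor gene Dach1 at 0.16 each, with Hist1h1b uncertain as 1 of a family of similar genes. Each of the 5 genes had every Axin1 library below every control, as their choice by likeness to Adamtsl2 implies, and log2 fold changes between -1.0 and -0.93.

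**Figure D5:**
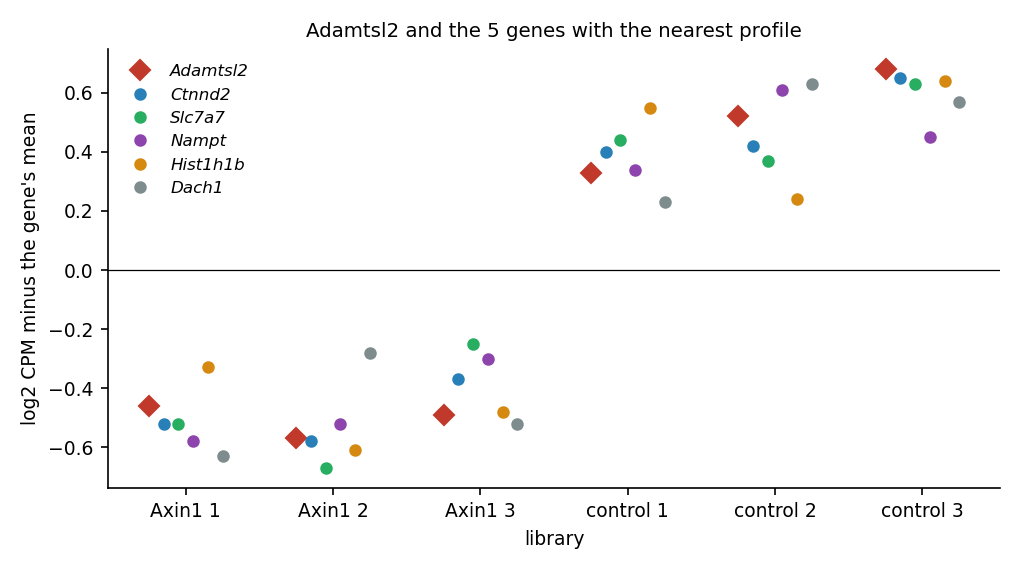
Log2 CPM minus the gene's mean over 6 libraries, for Adamtsl2 (diamonds) and the 5 genes with the nearest profile (circles), by library. The 3 Axin1 libraries lie below 0 and the 3 controls above 0 for all of these genes, which were chosen for this likeness.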

How the data were processed

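RNA was measured in 6 libraries, 3 Axin1 and 3 control, made from polyadenylated RNA by SMARTer cDNA synthesis, per the labels. The authors deposited read counts and RPKM values for 22958 RefSeq entries in every library, per the file headers. Bowtie and mm9 are named in the submitters' processing notes; which program counted the reads, and with which strand setting, is not given in the sources used here. For entries that join several transcripts the length behind RPKM differed between libraries: 1 read of Adamtsl5 gave 0.0768 RPKM in control 2 and 2 reads gave 0.058 RPKM in Axin1 library 2.

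Counts were filtered with filterByExpr (minimum count 10, minimum total 15), which left 12661 genes and 3 of the 7 members. They were normalised with TMM and tested with edgeR 4.0.16 (R 4.3.3; quasi-likelihood, robust, no covariates), at a Benjamini-Hochberg adjusted p of 0.05. Levels are mean ± SD. The SE of a log2 fold change is its size over the square root of F. Alternatives used DESeq2 1.42.0, limma 3.58.1 on log2 RPKM with pseudocounts of 1 and 0.1, other filters and scaling, and 1 library left out. DESeq2 gave an adjusted p to 10938 of the 12661 genes. Adamtsl1, Adamtsl4, Adamts8 and Fbln5 were among those without one, so DESeq2 could not call them. Single ratios and shares were tested by exact permutation over libraries (SciPy 1.17.1). The count models were tested on simulated data.

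Members, lists, named genes and tests were chosen with earlier results of these data known. Named were all members, Axin1, the called genes of each list and up to 3 uncalled ones with the smallest p, 2 sorting or endothelial genes, the leading markers, and the 5 genes nearest to Adamtsl2 in profile. Adamts10, Fbn1, Fbn2, Ltbp1, Tgfbi, Col1a2, Pdgfrb and Esam were named outside this rule, after their values were seen. Promoter windows come from RefSeq (GRCm38.p6), and antisense overlaps from GENCODE M21 (GRCm38); no coordinates of the mm9 tables were used. Intervals of counts and the floor of 3 reads cover counting error only.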

Additional observations from a re-analysis of the deposited data

How the results depend on the processing

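Adamtsl2 kept its direction in all 14 alternative fits, with log2 fold changes between -1.11 and -0.95, and stayed under an adjusted p of 0.05 in 9 of them. It missed that threshold in limma on log2(RPKM + 1), at -0.99, and on log2(RPKM + 0.1), at -1.0; leaving out 1 library moved the value between -1.11 and -0.95 and ended the call in 3 of 6 fits. Within title number 1813, with 1 library a group, it was -0.80. The cause was not tested. The number of members called, 1 in the main fit, was 0 in both limma fits and between 0 and 1 with 1 library left out. The number of genes called, 107 in the main fit, was 720 with DESeq2, 197 without a count filter, and 5 and 0 in limma with pseudocounts of 1 and 0.1 (2068 genes at an unadjusted p below 0.05 in the second). With 1 library left out it was between 0 and 695, the highest without control 3. Of the 72 genes on the 5 other lists 4 were called, against 8 with DESeq2, 1 and 0 in limma, and between 0 and 8 with 1 library left out. The difference in the Adamtsl2 share of the family was -2.08 percentage points from CPM. Adamtsl4 was not called in any fit that gave it an adjusted p, which DESeq2 did not. It had log2 fold changes between -0.02 (without Axin1 replicate 2) and 1.01 (without control replicate 3) with 1 library left out, and 1.26 with the title number as a block. Pecam1, not called in any fit, had values between -0.15 (without control replicate 3) and 0.003 (without control replicate 2).

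With the replicate number of the descriptions as a block, 105 genes were called and the log2 fold change of Adamtsl2 was -1.02 (edgeR adjusted p 0.0202); Adamts1 passed (0.0448) and Foxq1 did not (0.0613). With the title number as a block in the 4 libraries that share one, 1500 genes were called, 16 of them on the lists, and Adamtsl2 had -0.95 (edgeR adjusted p 3.0e-05). The labels do not say what either number marks. Deviations from the group means correlated at 0.234, 0.152 and -0.0229 across genes for libraries of the same description number 1, 2 and 3, and Axin1 library 3 correlated best with control 2 (0.175), so this number was not taken to pair the libraries. Only the first 2 of these pairs share a title number; both correlated above 0.1, but 2 pairs were held too few to take the title number as pairing. Depth limits the other members: Adamtsl3, Adamtsl5, Papln and Thsd4 had at most 19 reads in a library.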
